A study of Mus musculus with 9 samples.

Results

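The Serpina family holds clade A serine protease inhibitors and related carriers, most of which the liver secretes into plasma. Of its genes, 10 were examined in mouse liver: Serpina1a, Serpina1b, Serpina1c, Serpina1d, Serpina1e, Serpina3k, Serpina3m, Serpina3n, Serpina6 and Serpina10. They were found by gene name among the 52151 rows of the deposited gene expression table. Of the 10 genes, 7 had a row of their own name and 3 did not. The 8 rows that carried a member's name included 7 with an annotated transcript, which are called entries here, out of 26350 named entries with an annotated transcript in all. The 8th row held only an assembled transcript named for Serpina1c, was listed at 0 in 8 libraries and was at 1.41 FPKM in AF with MNA replicate 1.

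Total liver RNA was sequenced after ribosomal RNA depletion in 9 libraries, 3 in each of 3 groups. The labels give the mice an age of 8 weeks and 5 weeks of feeding. Pair-fed mice (PF) received the isocaloric control liquid diet, and alcohol-fed mice (AF) received the Lieber-DeCarli diet, the standard liquid ethanol diet for rodents. The third group (AF with MNA) received the Lieber-DeCarli diet and a daily intraperitoneal injection of 50 mg/kg MNA, whose full name the labels leave out. The strain label reads C57BL/6 for the PF and AF libraries, and C57BL/7, C57BL/8 and C57BL/9 for the AF with MNA libraries. No vehicle-injected group was among the libraries, so MNA cannot be told apart from the injection itself. The labels number the libraries of a group without saying how the animals were housed or handled, and p-values measure only the spread between these libraries.

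Serpins inhibit proteases by presenting a reactive centre loop as bait, and cleavage of that loop traps the protease. The Serpina1 genes are the mouse copies of the gene for alpha-1-antitrypsin, in humans the chief plasma inhibitor of neutrophil elastase. The mouse carries several copies where humans have a single gene, and which of them inhibit elastase was not examined here. Serpina3k, Serpina3m and Serpina3n belong to a mouse expansion of the alpha-1-antichymotrypsin gene, and Serpina3n is known as an acute phase gene. Serpina6 encodes corticosteroid-binding globulin, a carrier without inhibitory activity, and Serpina10 encodes the protein Z-dependent inhibitor of coagulation factor Xa. All 10 genes lie on chromosome 12 (GRCm38).

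Because the Serpina1 copies are near-identical, their reference sequences are shown first. Coding sequences of the 5 Serpina1 genes were 96.3 to 98.5% identical over 10 pairs, the closest pair being Serpina1a and Serpina1c with 19 differing bases. Serpina1e differed from the other copies at 43 to 46 coding bases. The 90-base coding window in which the 5 copies differed at most positions, 20 of 90 against a median of 4.0 over 883 windows, lay in the last coding exon, which encodes the reactive centre loop. It is given on the minus strand of GRCm38, 5′ to 3′, with capitals marking the positions at which the copies differ. Its place was chr12:103947068-103947157 for Serpina1e, chr12:103853725-103853814 for Serpina1a, chr12:103728292-103728381 for Serpina1b, chr12:103895062-103895151 for Serpina1c and chr12:103763730-103763819 for Serpina1d.
Serpina1e: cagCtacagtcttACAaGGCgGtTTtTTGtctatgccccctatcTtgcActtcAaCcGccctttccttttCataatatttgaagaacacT
Serpina1a: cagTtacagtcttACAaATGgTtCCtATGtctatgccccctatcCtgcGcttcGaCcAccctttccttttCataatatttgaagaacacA
Serpina1b: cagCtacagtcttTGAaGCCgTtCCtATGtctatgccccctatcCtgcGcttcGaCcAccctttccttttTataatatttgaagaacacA
Serpina1c: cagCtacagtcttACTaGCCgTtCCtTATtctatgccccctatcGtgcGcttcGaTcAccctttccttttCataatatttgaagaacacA
Serpina1d: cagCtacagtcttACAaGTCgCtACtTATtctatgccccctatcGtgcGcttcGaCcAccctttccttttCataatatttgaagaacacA
Within this window Serpina1e differed from Serpina1d at 11 bases and from each of Serpina1a, Serpina1b and Serpina1c at 13 bases, whereas Serpina1c and Serpina1d differed from each other at 5.

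The similarity bears on what a value stands for. Of all distinct 100-base stretches in the annotated transcripts of a gene, 58.5% were shared with another member for Serpina1c, 40.8% for Serpina1a, 26.3% for Serpina1d, 14.4% for Serpina1e and 13.8% for Serpina1b. The share was 4.85% for Serpina3k, 6.09% for Serpina3m and 0 for Serpina3n, Serpina6 and Serpina10. The levels of single Serpina1 copies, Serpina1c and Serpina1a most of all, are therefore uncertain where the read counting could split reads between copies. In addition, 5 of the 10 members did not have a row to themselves. The row named Serpina1d also held the annotated transcripts of Serpina1b, and the row named Serpina3n also held those of Serpina3k and Serpina3m. They are written Serpina1b/1d and Serpina3k/3m/3n below, and their members could not be separated. The Serpina1a row also contained the transcript of Gm8893.

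Promoters were available from RefSeq (GRCm38.p6, 250 bases before to 50 after the start) for 6 members, namely the 5 Serpina1 genes and Serpina3n. A run of 59 bases was the same in all 5 Serpina1 promoters. The piece of 159 bases around it is shown for Serpina1e (chr12:103956916-103957074), for the nearest copy Serpina1b (chr12:103738156-103738314) and for the most different copy Serpina1d (chr12:103773590-103773748), on the minus strand, with capitals at the 17 positions that differ among the 5 copies.
Serpina1e: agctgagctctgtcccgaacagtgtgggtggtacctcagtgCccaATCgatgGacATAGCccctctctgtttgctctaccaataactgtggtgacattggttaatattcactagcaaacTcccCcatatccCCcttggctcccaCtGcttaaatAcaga
Serpina1b: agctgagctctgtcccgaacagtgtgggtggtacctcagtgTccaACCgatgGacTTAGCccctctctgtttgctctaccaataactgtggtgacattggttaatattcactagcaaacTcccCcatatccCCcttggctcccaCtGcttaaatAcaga
Serpina1d: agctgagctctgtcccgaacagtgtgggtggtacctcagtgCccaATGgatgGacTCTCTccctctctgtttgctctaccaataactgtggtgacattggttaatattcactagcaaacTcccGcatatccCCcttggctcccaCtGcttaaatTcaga
Serpina1e differed from Serpina1b at 3 of these positions, from Serpina1a at 4, from Serpina1c at 5 and from Serpina1d at 8. GTTAAT, a core of the site bound by HNF1 factors, was searched on both strands and found, on the strand of the gene, in each of the 5 Serpina1 promoters, within the shared run, and on one strand or the other in 7.1% of all 32851 RefSeq promoters. TTCNNNGAA, the site bound by STAT factors, was found in 8.3% of all promoters and in none of the 6 windows. These matches describe letters in the windows and no binding was measured.

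Levels are given in FPKM, fragments scaled to transcript length and to the mapped fragments of the library, as deposited. Differences were tested with limma on log2(FPKM + 1) over all entries whose mean reached 0.5 FPKM, and all 7 Serpina entries were tested in every comparison. A fold change is the log2 ratio of the group means in FPKM, and an entry passed the threshold of the study's methods where the unadjusted p was below 0.05 and the log2 ratio was beyond 1 in either direction. A coefficient is the difference in mean log2(FPKM + 1), which understates the change of low genes. For a single entry an exact permutation test of 3 against 3 libraries cannot go below p = 0.1. In whole liver, fewer cells of a type and less RNA per cell cannot be told apart.

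Several libraries stood apart from the rest of their group. Saa1, an acute phase gene, was at 184 FPKM in PF replicate 1 and at 214 FPKM in AF replicate 2, against 1.64 to 42.8 FPKM in the other 7 libraries. The summed FPKM of lncRNA transcripts lying in introns was 9433 in AF replicate 3 and 8934 in AF with MNA replicate 1, against 2477 to 4937 in the others. No pair of libraries held the same value in more than 0.901% of entries, so no library looked like a copy of another. The files give no read counts per gene and the depth per library is unknown.

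Serpina1e, one of the antitrypsin copies, changed most. It was at 2319, 4221 and 1520 FPKM in PF replicates 1 to 3, at 149, 568 and 185 FPKM in AF, and at 122, 477 and 615 FPKM in AF with MNA. Every PF library was above every library of the other groups, and AF and AF with MNA overlapped. Means were 2687 ± 1387 FPKM in PF, 300.7 ± 232.2 in AF and 404.9 ± 254.4 in AF with MNA (SD, n = 3 each). The AF mean was 8.94-fold below the PF mean (log2 ratio -3.16, coefficient -3.29 ± 0.59 SE, 95% interval -4.71 to -1.87, limma adjusted p = 0.11, exact permutation p = 0.1). The AF with MNA mean was 6.64-fold below the PF mean (log2 ratio -2.73, coefficient -2.89 ± 0.69, interval -4.56 to -1.23, limma adjusted p = 0.171, exact permutation p = 0.1). Both differences passed the study's threshold, neither passed the adjustment over all entries, and they share the PF libraries. Without AF replicate 2 the AF to PF log2 ratio was -4.01, and without both PF replicate 1 and AF replicate 2 it was -4.10. Between AF with MNA and AF the log2 ratio was 0.43 with an interval of the coefficient from -1.39 to 2.19 (limma adjusted p = 0.995), an interval that holds both a fall and a rise of over 2-fold. It turned to -0.01 without AF with MNA replicate 3 and was 1.28 without AF replicate 2.

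**Figure D1:**
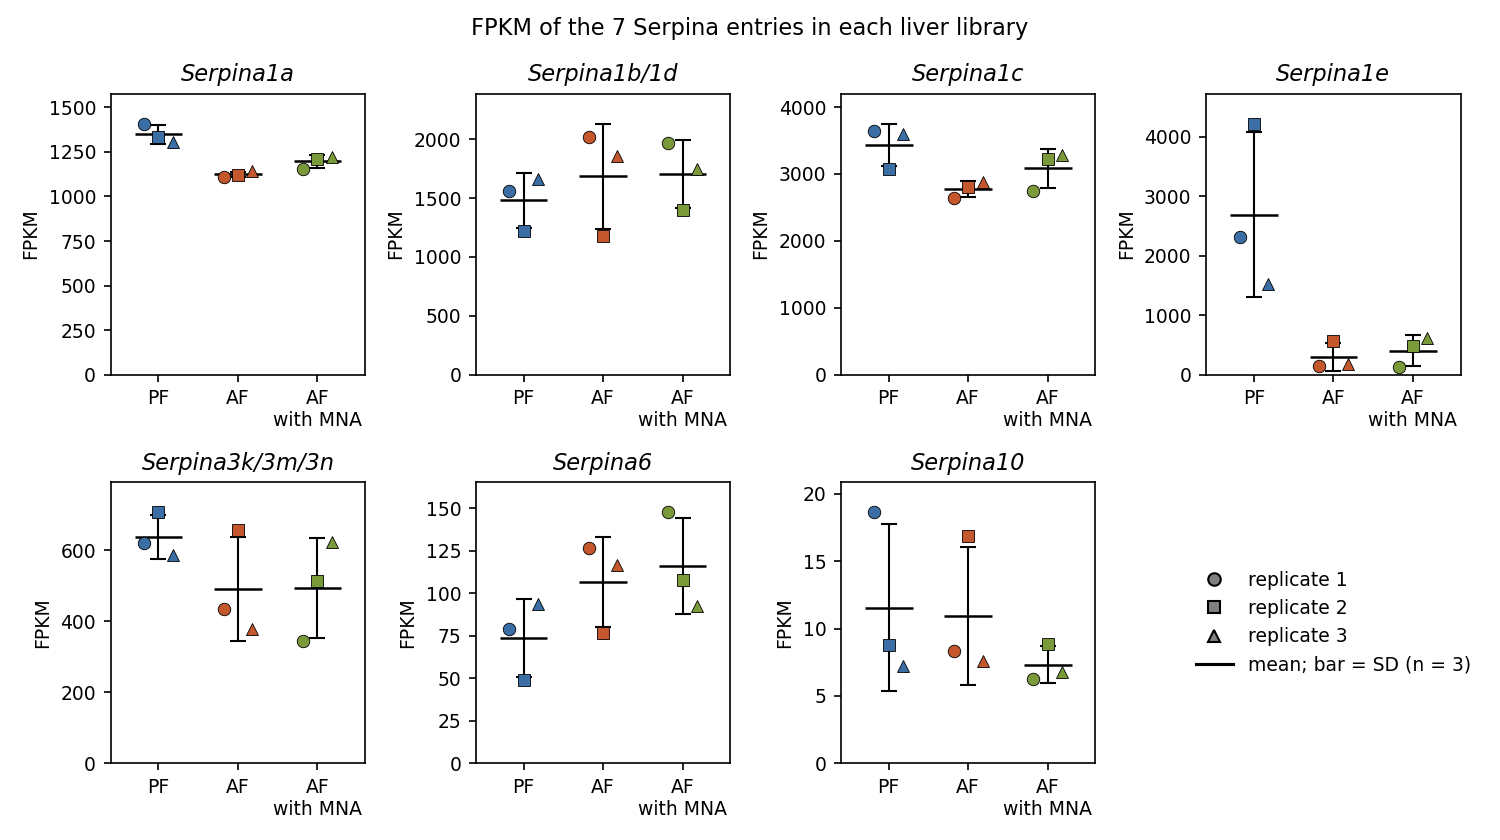
FPKM of the 7 Serpina entries (y axes, linear from 0) in the 9 liver libraries, grouped as PF, AF and AF with MNA on the x axis; symbols mark the replicate number, and the line and bar are the mean and SD of 3 libraries. Serpina1e lay between 1520 and 4221 FPKM in PF and between 122 and 615 FPKM in the other 6 libraries, while most other entries overlapped between groups.

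Serpina1c had the highest mean of the 7 entries over all 9 libraries. Its levels were 3635, 3069 and 3601 FPKM in PF replicates 1 to 3, then 2640, 2808 and 2881 FPKM in AF, then 2749, 3217 and 3280 FPKM in AF with MNA. All AF libraries were below all PF libraries, and the AF with MNA libraries overlapped both groups. The AF to PF log2 ratio was -0.31 (coefficient interval -0.74 to 0.13, limma adjusted p = 0.579). Serpina1c ranked between 4 and 10 among all entries in every library by FPKM, whereas Serpina1e ranked 5 to 22 in PF, 54 to 186 in AF and 51 to 209 in AF with MNA.

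Serpina1a varied least within groups. It was at 1409, 1333 and 1305 FPKM in PF replicates 1 to 3, 1111, 1120 and 1141 FPKM in AF, and 1157, 1212 and 1222 FPKM in AF with MNA. The 3 groups did not overlap at all, with PF highest, AF lowest and AF with MNA between them. The differences were small, with log2 ratios of -0.26 for AF against PF, -0.17 for AF with MNA against PF and 0.09 for AF with MNA against AF, and limma adjusted p-values of 0.571, 0.624 and 0.99. Their coefficient intervals, -0.63 to 0.11, -0.51 to 0.16 and -0.27 to 0.45, all held 0.

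The joint entry Serpina1b/1d went the other way in means without separating the groups. It was at 1559, 1220 and 1664 FPKM in PF replicates 1 to 3, 2023, 1176 and 1855 FPKM in AF, and 1967, 1396 and 1749 FPKM in AF with MNA. Replicate 2 was the lowest library of each group, and each pair of groups overlapped. Log2 ratios were 0.19 for AF against PF and 0.20 for AF with MNA against PF (limma adjusted p = 0.857 and 0.716).

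Summed over its entries, the Serpina1 level was 8952 ± 877 FPKM in PF, 5886 ± 197 FPKM in AF and 6388 ± 442 FPKM in AF with MNA (SD, n = 3 each). Of the 3066 FPKM by which the AF mean lay below the PF mean, Serpina1e made up 77.8%, Serpina1c 21.5% and Serpina1a 7.33%, and the higher mean of Serpina1b/1d offset -6.63%. For AF with MNA, Serpina1e made up 89.0% of the 2563 FPKM by which its mean lay below PF. The share of Serpina1e in the Serpina1 sum was 26.0, 42.9 and 18.8% in PF replicates 1 to 3, 2.52, 10.01 and 3.05% in AF, then 2.04, 7.57 and 8.96% with MNA. Because these shares split reads between near-identical copies, they carry the uncertainty given above. Without Serpina1e the remaining copies kept the same order in most libraries, Serpina1c first and Serpina1a last in all libraries except PF replicate 2.

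**Figure D2:**
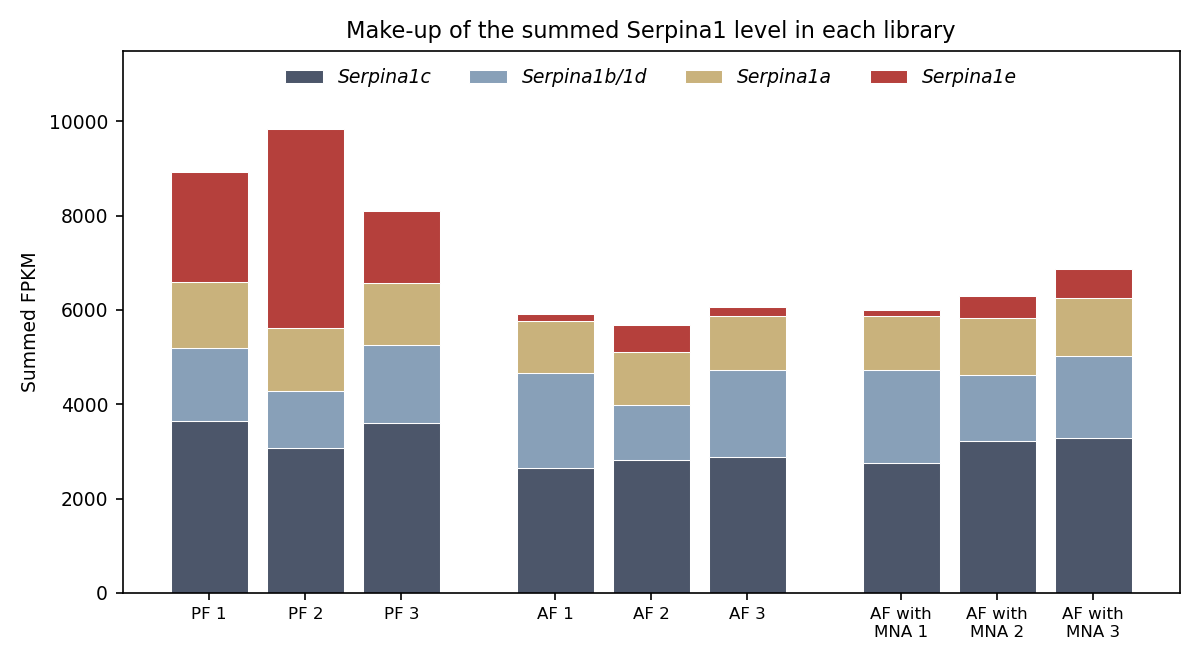
Stacked bars of the FPKM of the 4 Serpina1 entries (y axis, summed FPKM from 0) in each of the 9 libraries (x axis). The Serpina1e segment was 18.8 to 42.9% of the bar in PF and 2.04 to 10.01% in the other libraries, while Serpina1c was the tallest segment in every library except PF replicate 2.

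Members of the antichymotrypsin group shared the entry Serpina3k/3m/3n, which was at 620, 707 and 586 FPKM in PF replicates 1 to 3, 436, 657 and 379 FPKM in AF, and 344, 512 and 625 FPKM in AF with MNA. One AF library and one AF with MNA library lay within the PF range. The log2 ratio was -0.38 for AF against PF and -0.37 for AF with MNA against PF (limma adjusted p = 0.567 and 0.516), and both coefficient intervals held 0. Leaving out AF replicate 2 gave -0.65 for AF, and leaving out AF replicate 3 gave -0.22. For AF with MNA the value was -0.58 when replicate 3 of that group was left out and -0.17 when its replicate 1 was. A single circular RNA of Serpina3k, from an intron, was listed among 4486 circular RNAs, with 1 junction read in PF replicate 1 and 0 in the other libraries.

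Serpina6, the corticosteroid carrier, was at 78.6, 48.8 and 93.9 FPKM in PF replicates 1 to 3, 127, 76.6 and 117 FPKM in AF, and 148, 107 and 92.6 FPKM in AF with MNA. The groups overlapped, although the lowest library was a PF library and the highest an AF with MNA library. The log2 ratio was 0.53 for AF against PF (coefficient 0.54 ± 0.30, interval -0.18 to 1.27, limma adjusted p = 0.549) and 0.65 for AF with MNA against PF (coefficient 0.67 ± 0.29, interval -0.04 to 1.37, adjusted p = 0.368). Serpina6 was thus higher in both means without passing the threshold.

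Serpina10, the inhibitor of factor Xa, was at 18.7, 8.75 and 7.21 FPKM in PF replicates 1 to 3, 8.32, 16.9 and 7.62 FPKM in AF, and 6.26, 8.87 and 6.78 FPKM in AF with MNA. Its highest values, in PF replicate 1 and AF replicate 2, were in the libraries with the highest Saa1, and no other library exceeded 8.87 FPKM. The log2 ratio of AF to PF was -0.08 (coefficient interval -1.03 to 0.94, limma adjusted p = 0.982), was 0.45 without PF replicate 1 and was 0.00 without both of those libraries. For AF with MNA the log2 ratio was -0.58 against AF (coefficient interval -1.18 to 0.27, limma adjusted p = 0.966) and -0.66 against PF (-1.32 to 0.32, adjusted p = 0.563), and the groups overlapped in each comparison. The first was -0.13 without AF replicate 2, and the second was -0.13 without PF replicate 1. The part of the acute phase genes in the Serpina10 level was not tested.

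**Figure D3:**
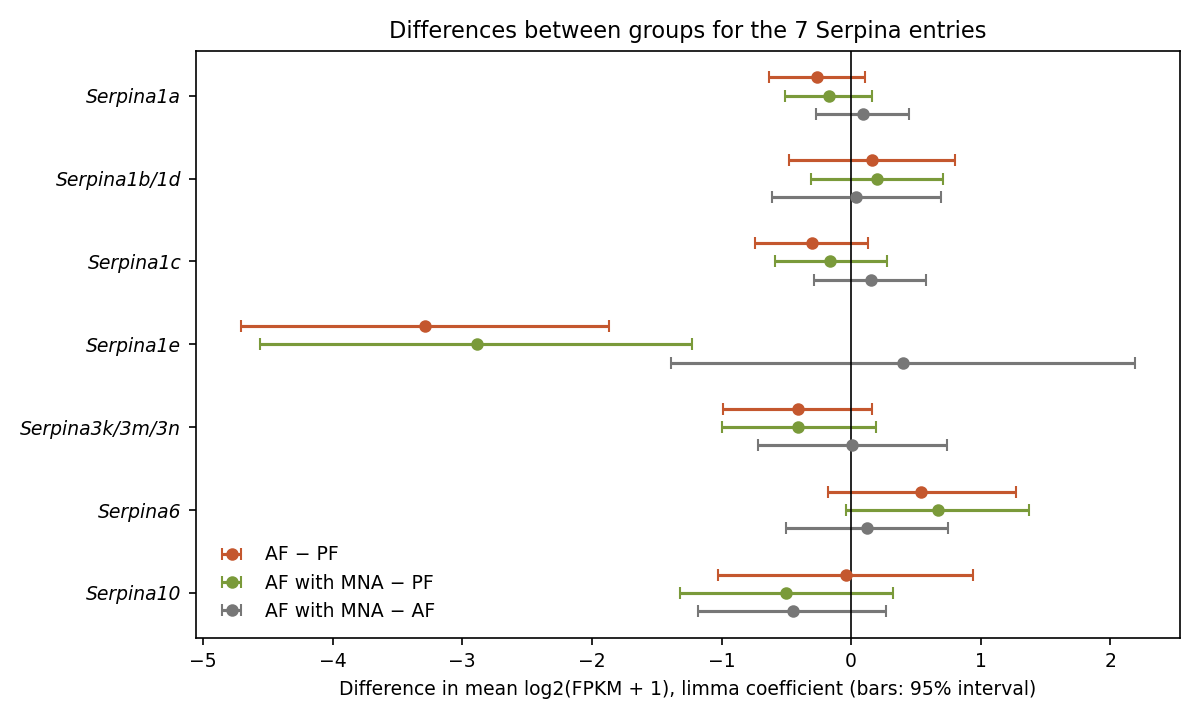
Differences in mean log2(FPKM + 1) between groups (x axis, limma coefficient with its 95% interval as bars) for the 7 Serpina entries (y axis), in 3 comparisons marked by colour. The intervals of Serpina1e against PF, -4.71 to -1.87 for AF and -4.56 to -1.23 for AF with MNA, are the ones that do not reach 0.

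Counted over the 7 entries, 1 passed the threshold in AF against PF, where 4.29% of 12273 tested entries passed, 2.35% lower and 1.95% higher. Likewise 1 passed in AF with MNA against PF, against 3.88% of 12281, 1.95% lower and 1.94% higher. None passed in AF with MNA against AF, where 1.98% of 12219 passed and where 0 Serpina entries had an unadjusted p below 0.05, beside 5.21% of all entries with limma and 6.33% with an unmoderated linear model with a library-size covariate. No Serpina entry reached an adjusted p below 0.05 in limma, whereas 0.326% of all entries did in AF against PF, 0.423% in AF with MNA against PF and 0.0491% for MNA within AF. An unadjusted p below 0.05 was found for 1 Serpina entry in each comparison with PF, beside 11.7% of all entries in AF and 14.5% in AF with MNA, and for 3 entries in each with the unmoderated model, beside 11.4% and 9.89% of all entries with that model. Groups did not overlap for 3 entries in AF against PF (18.3% of all tested), for 2 in AF with MNA against PF (21.4%) and for 1 in AF with MNA against AF (10.1%). The median log2 ratio of the 7 entries was -0.26, -0.17 and 0.09 in these comparisons, beside -0.03, -0.02 and 0.01 over all entries tested. Together the 7 entries held 4.48 ± 0.339% of all FPKM in PF, 3.02 ± 0.189% in AF and 3.24 ± 0.255% in AF with MNA (SD, n = 3 each).

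Some entries varied together within groups, in the same or in opposite directions. In each group the library with the highest Serpina1e, PF replicate 2, AF replicate 2 and AF with MNA replicate 3, had the lowest Serpina6. Over the 9 libraries Serpina1e and Serpina6 had r = -0.90 on log2(FPKM + 1), and r = -0.93 for deviations from the group means. Serpina1e and Serpina3k/3m/3n had r = 0.87, and 0.94 for the deviations, and Serpina1a and Serpina1c had 0.86 and 0.61. Serpina1b/1d had r = -0.84 with Serpina1e and 0.84 with Serpina6 for the deviations, whereas Serpina10 stayed between -0.55 and 0.59 with every other entry. These describe 9 libraries that share diets and a normalization to the library total, and copies with shared reads are not independent of each other.

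**Figure D4:**
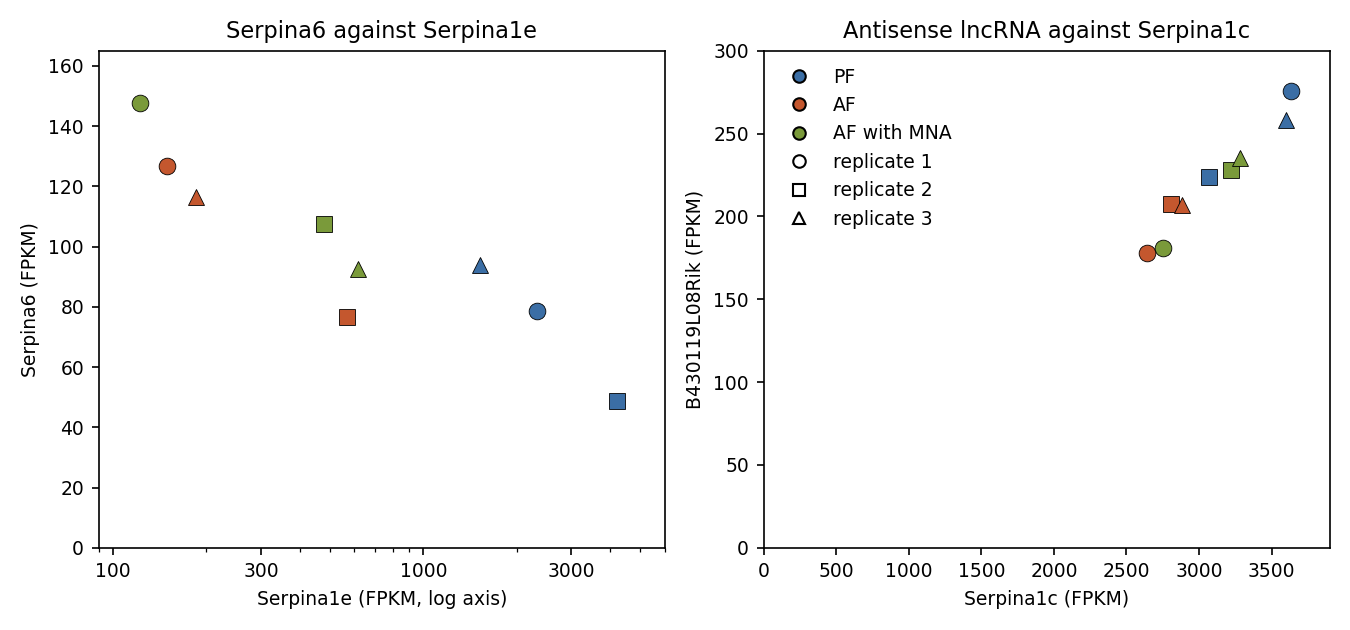
Left, Serpina6 (y axis, FPKM) against Serpina1e (x axis, FPKM, log axis); right, the lncRNA B430119L08Rik (y axis, FPKM) against Serpina1c (x axis, FPKM), one point per library with colour for group and symbol for replicate. Serpina6 falls from 148 to 48.8 FPKM as Serpina1e goes from 122 to 4221 FPKM, and B430119L08Rik stays at 6.58 to 7.59% of Serpina1c.

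The annotated lncRNA B430119L08Rik lies at chr12:103895897-103898784 (GRCm38, plus strand, 2 exons), inside Serpina1c on the opposite strand. It was at 276, 224 and 258 FPKM in PF replicates 1 to 3, 178, 207 and 207 FPKM in AF, and 181, 228 and 235 FPKM in AF with MNA. In every library it was 6.58 to 7.59% of the Serpina1c level, and its order of libraries was nearly that of Serpina1c (r = 0.97 over the 9 libraries). The log2 ratio was -0.36 for AF against PF, -0.23 for AF with MNA against PF and 0.12 for AF with MNA against AF (limma over lncRNA transcripts, adjusted p = 0.598, 0.593 and 0.88), where 2.47%, 2.25% and 1.75% of lncRNA transcripts passed the threshold and it did not. The library kit marked strand, but whether strand was used in assembling and counting was not given in the sources used here, so reads of the gene and its antisense partner may not be told apart. The other annotated lncRNA transcripts of the region, Gm28577 and Gm37496, did not exceed 0.319 FPKM.

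For each entry the non-member entries most like it over the 9 libraries were looked up among 12250 entries by r on log2(FPKM + 1). For Serpina1e they were C6, a complement component of the membrane attack complex (r = 0.994), and Cyp2d9, a cytochrome P450 known for higher levels in male mouse liver (r = 0.986). C6 was at 28.2, 36.3 and 17.2 FPKM in PF, 2.98, 10.2 and 3.29 FPKM in AF, and 3.25, 8.42 and 9.27 FPKM in AF with MNA. Its order of libraries within each group matched that of Serpina1e, highest in PF replicate 2, AF replicate 2 and AF with MNA replicate 3. For Serpina10 they were C4b (r = 0.959) and Itih3 (r = 0.955), plasma proteins of complement and of the hyaluronan matrix, both highest in PF replicate 1 and AF replicate 2. For Serpina3k/3m/3n they were Wdfy4 (r = 0.955) and the neighbouring Serpina4-ps1 (r = 0.94), for Serpina6 Dhrs7 (r = 0.969) and Capzb (r = 0.964), for Serpina1c B430119L08Rik (r = 0.972) and Prpsap1 (r = 0.967), for Serpina1a Col5a3 (r = 0.98) and Gna12 (r = 0.975), and for Serpina1b/1d Kmt5b (r = 0.966) and Eif2d (r = 0.955). With so many entries searched over 9 libraries, a high r was found for each of the 7 Serpina entries.

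The rest of the Serpina family was then read from a list of 16 genes, of which 14 had a row and 6 were expressed enough to be tested. Of these 6, 2 fell and 0 rose past the threshold in AF against PF, and 2 fell and 1 rose in AF with MNA against PF, beside 4.29% and 3.88% of all entries in either direction. Serpina7, thyroxine-binding globulin, was at 23.3, 11.5 and 10.7 FPKM in PF, 2.92, 2.44 and 3.19 FPKM in AF, and 4.23, 5.92 and 3.37 FPKM in AF with MNA, with no overlap between any of the groups. Its log2 ratio was -2.41 for AF against PF (limma adjusted p = 0.0761) and -1.75 for AF with MNA against PF (adjusted p = 0.152). Serpina12, the adipokine vaspin, was at 2.76, 6.36 and 5.03 FPKM in PF and at 0.48 to 1.22 FPKM in the other libraries, with log2 ratios of -2.42 and -3.01 (adjusted p = 0.106 and 0.0664). Serpina3g rose in AF with MNA against PF by 1.31 on the log2 scale (adjusted p = 0.181). Its log2 ratio was 0.89 in AF against PF, also without overlap (limma adjusted p = 0.357), and 0.42 in AF with MNA against AF (adjusted p = 0.98). Agt, angiotensinogen, a serpin without inhibitory activity, was at 191 to 230 FPKM in PF, 381 to 477 FPKM in AF and 356 to 401 FPKM in AF with MNA. Its log2 ratios against PF, 0.97 and 0.83 (limma adjusted p = 0.106 and 0.0907), stayed short of the threshold of 1. The row of Serpina9, which also held Serpina11, was 0.52 lower on the log2 scale in AF and 0.76 lower in AF with MNA, also short of it, and Serpina3f had log2 ratios of 0.01 and 0.00.

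**Figure D5:**
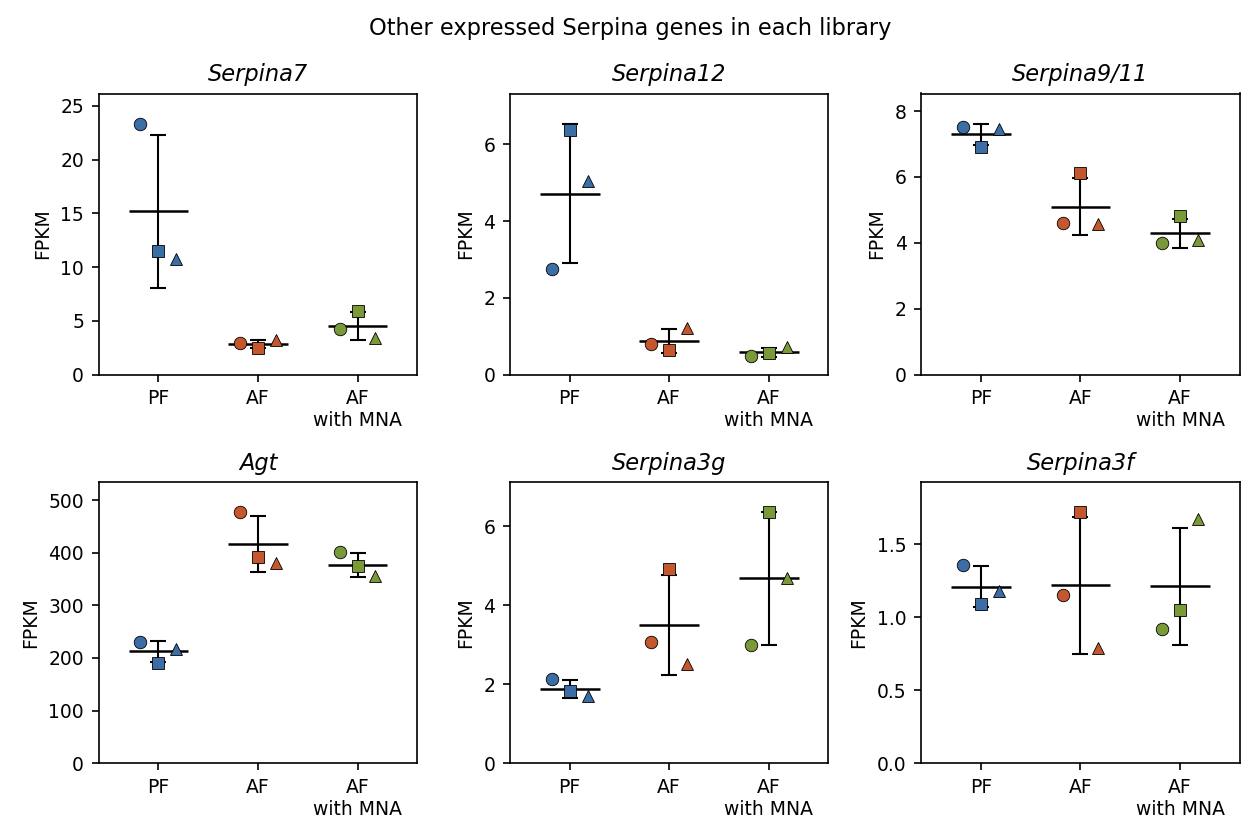
FPKM of the 6 other tested Serpina genes (y axes, linear from 0) in the 9 libraries by group; symbols mark the replicate number, and the line and bar are the mean and SD of 3 libraries. Serpina7 and Serpina12 lay higher in every PF library than in any other library, and Agt lay lower.

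Genes that meet the Serpina proteins in the secretory pathway or in plasma were read from further lists. Over all entries, 4.29% passed the threshold in AF against PF and 3.88% in AF with MNA against PF. The shares with an unadjusted limma p below 0.05 were 11.7% and 14.5%. Of 11 genes of folding and export in the endoplasmic reticulum, 2 fell and 0 rose in each comparison with PF (median log2 ratio -0.28 over 11 tested for AF). In each of these comparisons 4 had an unadjusted p below 0.05, all lower. The 2 that fell were Hspa5 and Derl3. Hspa5, the chaperone BiP, was at 69.7 to 124 FPKM in PF, 37.7 to 44.5 FPKM in AF and 29.7 to 53.0 FPKM in AF with MNA (log2 ratios -1.16 and -1.04, limma adjusted p = 0.144 and 0.249). Derl3, of the degradation machinery, was low, at 1.86, 2.79 and 0.41 FPKM in PF, 0.12, 0.08 and 0.48 FPKM in AF, and 0.04, 0.15 and 0.35 FPKM in AF with MNA. Its log2 ratios were -2.90 and -3.23, although its PF and AF groups overlapped. Among 7 tested proteases and cofactors that serpins act on, F11, coagulation factor XI, fell in AF (log2 ratio -1.02, limma adjusted p = 0.378). None passed in AF with MNA against PF, where 2 had an unadjusted p below 0.05. F11 was at 7.50, 16.4 and 13.8 FPKM in PF, 5.97, 4.32 and 8.35 FPKM in AF, and 6.35, 5.34 and 7.64 FPKM in AF with MNA. Both alcohol groups thus overlapped PF, with similar means of 6.21 and 6.44 FPKM. Elane, neutrophil elastase, the main target of human antitrypsin, did not exceed 0.13 FPKM in any library. Hsd11b1, which regenerates active glucocorticoid, rose against PF, in AF with a log2 ratio of 1.10 (limma adjusted p = 0.125) and with MNA added (1.23, adjusted p = 0.0721), the only gene to pass of 6 tested for glucocorticoid handling, the group that Serpina6 belongs to by its ligand. Of 11 tested serpins outside clade A, Serpine2 fell and Serpinb1a rose in both comparisons with PF, all at 3.00 FPKM or less.

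Regulators and acute phase genes were counted in the same way, where 4.29% of all entries passed in AF against PF, 1.98% in AF with MNA against AF and 3.88% in AF with MNA against PF. Of 16 tested acute phase genes, Apcs fell and Hamp, whose row also held Hamp2 and whose groups overlapped, rose in AF against PF (log2 ratios -8.49 and 1.04, limma adjusted p = 0.00397 and 0.404), and 0 passed in AF with MNA against PF, where 0 also had an unadjusted p below 0.05. Apcs, serum amyloid P component, was at 43.1 to 104 FPKM in PF and 0 to 0.48 FPKM in AF. In AF with MNA it was at 34.2, 19.3 and 0.06 FPKM, all below the PF libraries with 1 library within the AF range, and its log2 ratio against PF was -1.83 (limma adjusted p = 0.424). Of 11 tested cytokine signalling genes, 0 passed in any limma comparison. Among them 1, 0 and 3 had an unadjusted p below 0.05 in AF against PF, MNA within AF and AF with MNA against PF. The shares of all entries at that p were 11.7%, 5.21% and 14.5%. The most abundant of the 11 were Il6st (23.4, 19.1 and 19.2 FPKM as means of PF, AF and AF with MNA) and Nfkbia (8.37, 14.9 and 11.99 FPKM). Of 10 hepatocyte transcription factors, Onecut1 fell in AF against PF (-1.63), at 2.25 to 6.71 FPKM in PF and 1.19 to 1.58 FPKM in AF. Foxa2 rose in AF with MNA against AF (2.30), at 0.93 to 1.15 FPKM in AF and 2.42, 9.69 and 3.56 FPKM in AF with MNA. Of 10 growth hormone pathway genes, Ghr fell (-1.03) and Cux2 rose (3.28) in AF against PF, Cish rose in AF with MNA against AF (1.11) and Bcl6 fell in AF with MNA against PF (-2.11).

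Markers of the labelled tissue were abundant. Alb, the hepatocyte product albumin, was at 10882 to 17386 FPKM, and the 5 hepatocyte markers summed to 15100 to 20100 FPKM in PF, 13510 to 20110 in AF and 18220 to 20260 in AF with MNA. Most of that sum was Alb, and 1 of the 5 markers passed the threshold, Tat, tyrosine aminotransferase, at 115, 241 and 137 FPKM in PF, 387, 581 and 197 FPKM in AF and 301, 126 and 197 FPKM in AF with MNA. Tat rose in AF against PF (log2 ratio 1.24, limma adjusted p = 0.393), although these groups overlapped. The summed ranges of the 7 neutrophil markers were 0.33 to 0.89 FPKM in PF, 0.91 to 2.21 in AF and 0.28 to 0.75 in AF with MNA, with Ly6g at 0 in 6 libraries and Elane at 0 in the AF with MNA libraries. For 5 Kupffer cell markers the sums were 25.9 to 30.5, 16.2 to 30.8 and 22.04 to 32.1 FPKM, and Marco rose in both comparisons with PF (log2 ratios 1.25 and 1.57), while Clec4f, Vsig4 and Adgre1 had log2 ratios of -0.64, -0.52 and -0.23 in AF against PF without passing, and the list's median there was -0.23. For 5 sinusoidal endothelial markers they were 21.9 to 25.6, 25.7 to 36.1 and 30.9 to 35.8 FPKM. No PF sum reached the others, though the nearest PF and AF sums were 25.64 and 25.70 FPKM. Taken singly, 0 of the 5 separated AF from PF, beside 18.3% of all entries, and Fcgr2b was lower in mean (4.10 and 3.98 FPKM). In AF with MNA against PF 2 of the 5 did not overlap, beside 21.4% of all entries, and 0 passed the threshold. Stellate markers summed to 28.8 to 30.0, 26.1 to 36.3 and 27.4 to 39.3 FPKM, cholangiocyte markers to 3.27 to 4.31, 4.86 to 9.12 and 3.34 to 6.33 FPKM, and lymphocyte markers to 0.86 to 1.67, 0.80 to 1.52 and 1.44 to 1.87 FPKM. The part of other cell types in the Serpina1e difference was not tested.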

How the data were processed

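The authors sequenced strand-marked, ribosomal RNA-depleted liver libraries paired-end, and the submitters' processing notes name cutadapt 1.9, HISAT2, StringTie 1.3.4 and edgeR. The genome build was not given in the sources used here; of 7879 known lncRNA transcripts 7841 were in GENCODE M21 (GRCm38) and 7708 had the same start and end, so that annotation was used. The authors deposited FPKM per assembled gene and per lncRNA transcript, and counts of junction reads per circular RNA, which were not tested; the deposited base coverage of lncRNA transcripts served only to compare libraries (5.84 to 8.30 coverage per FPKM). Entries that merged transcripts of several coding genes, 437 in all, were kept as deposited.

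Groups were compared with limma 3.58.1 (R 4.3.3, lmFit and eBayes with an intensity trend) on log2(FPKM + 1), over named entries with a known transcript and a mean of at least 0.5 FPKM in the 6 libraries compared (lncRNA transcripts 0.1 FPKM), with Benjamini-Hochberg adjustment over all entries tested; limma replaced the linear model of Ballgown described in the methods. The procedure was tested on simulated data. From each gene list, those past the threshold were named, at most 4 by size of log2 ratio, otherwise the 2 with the highest mean; C6, C4b and the like were the 2 entries of highest r. The members and lists were chosen with earlier results of these data known. Alternatives changed the pseudocount, the filter, the scaling, the model and the libraries. Sequences were compared with Biopython 1.88. Depth is unknown, and 3 libraries a group limit the precision.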

Additional observations from a re-analysis of the deposited data

How the results depend on the processing

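Under every alternative run, 1 Serpina entry passed the threshold in AF against PF, 0 in AF with MNA against AF and 1 in AF with MNA against PF. The log2 ratio of Serpina1e ranged from -4.01 to -2.67 in AF against PF and from -3.16 to -2.25 in AF with MNA against PF when each library was left out, and its adjusted p from 0.0542 to 0.317 and from 0.155 to 0.38 over all alternatives, the highest in each from the unmoderated linear model and the others from limma. Leaving out PF replicate 1 and AF replicate 2 together was chosen after seeing the data. Same-numbered libraries of 2 groups had correlations of -0.08 to 0.06 in their deviations over the expressed entries. That shows no pairing over the entries as a whole, and it cannot tell for single entries. With the replicate block 1, 0 and 1 entries passed, and 2 instead of 1 had an unadjusted p below 0.05 in AF against PF, beside 11.5% of all entries with the block.

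Signs turned for the differences given next, whose main log2 ratios ran from -0.08 to 0.43, and the cause was not tested. Serpina1a in AF with MNA against AF, at 0.09, kept its sign under every alternative. With each library left out, Serpina10 in AF against PF ran from -0.53 to 0.45. In AF with MNA against AF, Serpina1b/1d ran from -0.19 to 0.17, Serpina1e from -0.01 to 1.28, Serpina6 from -0.09 to 0.26 and Serpina3k/3m/3n from -0.20 to 0.28, the last also turning to -0.02 with each library scaled to the same median. Over named entries only, the members held 3.23% of FPKM in AF instead of 3.02%, the unnamed entries being left out of the total.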
